A study of Danio rerio with 15 samples.

Results

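The 8 genes described here are the glucocorticoid receptor nr3c1, the mineralocorticoid receptor nr3c2, the receptor-regulated genes fkbp5, tsc22d3, zbtb16a, klf9 and sgk1, and crhbp, which encodes the binding protein of corticotropin-releasing hormone. They were given by name, proposed with earlier results of these data known, and all 8 were found among the 14971 genes of the deposited count tables. Adult zebrafish (Danio rerio) had lived for 56 days with dibromoacetonitrile (DBAN), a brominated by-product of water disinfection, before their brains were taken and poly(A) RNA was sequenced. The female groups had 0, 40 or 200 µg/L and the male groups 0 or 40 µg/L, each with 3 libraries, so that 5 groups made 15 libraries. Strain, age, number of fish per library and hour of collection are not given, so a p-value here reflects variation among libraries, part of which may be technical.

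Cortisol is the main glucocorticoid of fish. It enters the cell, binds nr3c1 or nr3c2 held in a complex with heat shock protein 90, and the receptor then moves to the nucleus and switches target genes on or off. In the brain this signal closes the feedback loop of the stress axis, in which corticotropin-releasing hormone drives the pituitary and the pituitary drives cortisol release from the interrenal gland. fkbp5 encodes a co-chaperone that lowers the receptor's affinity for hormone and is itself induced by the receptor, and it is among the most widely used readouts of glucocorticoid action in vertebrate tissue.

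In brief, fkbp5 was the member with the largest difference that passed the test under DBAN. It fell 6.21-fold in males at 40 µg/L, where 15.1% of all genes passed, and that call was lost in most fits with a library left out. Library complexity, described below, did not overlap between exposed and control males, so it cannot be told apart from DBAN there. In all 3 female libraries at 200 µg/L fkbp5 lay below every female control without passing the test. In that comparison 17.9% of all genes had no overlap. zbtb16a fell 1.91-fold in males at 40 µg/L and was 5.18-fold lower in unexposed females than in unexposed males. Both zbtb16a calls were lost in some fits with a library left out. For neither receptor did a comparison pass the edgeR test over all genes on all libraries. With both sexes joined at 40 µg/L nr3c2 passed with DESeq2, where 25.4% of genes passed, and in edgeR without replicate 1 of males at 40 µg/L.

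**Figure D1:**
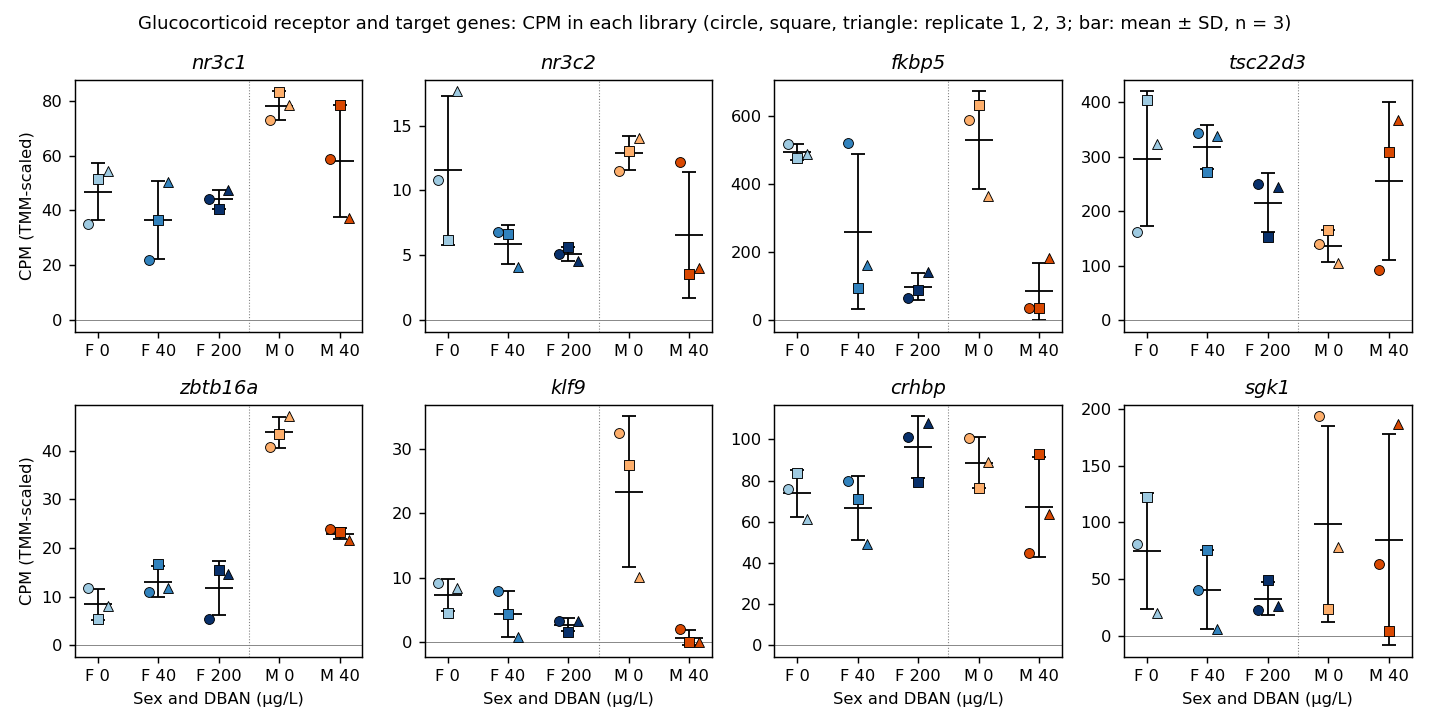
CPM (counts scaled to library size, vertical axes, linear) of each of the 8 genes in the 15 libraries, by sex and DBAN in µg/L; points are libraries, with a circle, square and triangle for replicates 1, 2 and 3, and bars are the mean ± SD of 3 libraries. The 3 male libraries at 40 µg/L lie below all 3 male controls for fkbp5, zbtb16a and klf9, and the 3 female libraries at 200 µg/L lie below all 3 female controls for fkbp5, klf9 and nr3c2.

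Library totals ran from 10488947 to 49388334 counts. They were 18365050 to 22630829 in female controls, 33198859 to 49388334 at 40 µg/L and 10488947 to 17684130 at 200 µg/L. Male controls had 35666401 to 42122528 and males at 40 µg/L 31576124 to 48621981. The female groups did not overlap, nor did the unexposed sexes, so there depth cannot be told apart from dose or sex. In each library 40.5% to 49.6% of the values above 0 and up to 40 were multiples of 4, for a reason that is not known. Levels are given as CPM, scaled with factors computed once over the 15 libraries. Library complexity was read from rare genes, meaning genes with a count of 0 in 10 or more of the other 14 libraries. Their median count was 8 to 9 in male controls and 39 to 132 in males at 40 µg/L. It was 8 to 11 in female controls, 8 to 35 in females at 40 µg/L and 8 to 17 at 200 µg/L, and a library with fewer distinct molecules gives a higher value. In males at 40 µg/L the median rests on few genes, 63, 90 and 21 in replicates 1, 2 and 3, beside 381 to 599 in male controls. The median of 132 is that of replicate 3, so it and the floor taken from it are rough. Neuron markers, of which 6 of 7 were found, summed to 8290 to 9790 CPM in all libraries. The summed CPM over the libraries ran from 1930 to 4230 for radial glia, 401 to 1210 for oligodendrocytes, 66.8 to 208 for microglia, 24.6 to 82.7 for vessels, 886 to 13900 for blood and 52.4 to 194 for the hypothalamus. Pituitary markers summed to 1.69 to 23.7 CPM, with hormone genes such as gh1 and tshba at 0 in libraries of every group.

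The receptors are described first, since the receptor-regulated members stand downstream of them. nr3c1 lies on chromosome 14 at 23747183 to 23801389 of the deposited tables, for which no source used here names a genome build. Its level was 35.0, 51.4 and 54.2 CPM in the 3 female controls, 22.1, 36.7 and 50.4 at 40 µg/L, and 44.1, 40.5 and 47.5 at 200 µg/L. In males it was 72.9, 83.3 and 78.5 CPM in the controls and 58.8, 78.2 and 37.3 at 40 µg/L. The exposed groups overlapped their controls in both sexes, and the 3 male controls lay above all 3 female controls. The log2 fold change was -0.37 ± 0.307 (SE, edgeR adjusted p = 0.675) in females at 40 µg/L, -0.09 ± 0.307 (edgeR adjusted p = 0.959) at 200 µg/L and -0.43 ± 0.281 (edgeR adjusted p = 0.377) in males. Between the unexposed sexes it was -0.74 ± 0.322, female minus male, with an edgeR adjusted p of 0.215, so that difference did not pass.

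nr3c2, the receptor with the higher affinity for cortisol, was a low gene in every group. It is listed on chromosome 1 at 36935154 to 37087966 and again on an alternative contig. Both places share the same counts, and how reads that match both were counted is not given. Female controls had 10.8, 6.17 and 17.7 CPM, females at 40 µg/L 6.80, 6.62 and 4.09, and females at 200 µg/L 5.09, 5.63 and 4.57. Male controls had 11.5, 13.0 and 14.1 CPM and males at 40 µg/L 12.2, 3.56 and 3.998. The 200 µg/L libraries lay just below the lowest female control, 2 of the 3 male libraries at 40 µg/L were well below the male controls, and the third was among them. The 3.998 CPM of exposed replicate 3, from 132 counts, is no more than that library's rare-gene median count of 132. It lies under the floor of 11.99 CPM, taken as 3 times that median, so it could not be told from the lowest male control. The log2 fold change was -1.18 ± 0.502 at 200 µg/L (edgeR adjusted p = 0.423) and -0.98 ± 0.497 in females at 40 µg/L (edgeR adjusted p = 0.389). In males it was -0.97 ± 0.596 (edgeR adjusted p = 0.345). With both sexes joined, 6 libraries at 40 µg/L against 6 controls with sex as a term, it was -0.98 ± 0.392 (edgeR adjusted p = 0.108). It passed that test with DESeq2 (adjusted p = 0.0457, where 25.4% of genes passed) and, in edgeR, without replicate 1 of males at 40 µg/L (log2 fold change -1.32, adjusted p = 0.0326).

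fkbp5 lies on chromosome 6 at 41096058 to 41116053. In the 3 male controls it stood at 588, 634 and 364 CPM, and in males at 40 µg/L at 35.9, 37.6 and 182 CPM. The exposed libraries all lay below the controls, and replicate 3, the highest of the exposed, had the highest rare-gene median of the 15 libraries, at 132. The mean fell from 528.8 ± 144.1 to 85.14 ± 83.85 CPM (SD, n = 3 per group; log2 fold change -2.63 ± 0.686 SE, edgeR adjusted p = 0.0467). Of all 12454 genes tested in males 15.1% passed, and 2 of the 8 members did, fkbp5 and zbtb16a. The male call did not hold when replicate 1, 2 or 3 of the controls was left out (edgeR adjusted p = 0.14, 0.123 and 0.0863) or replicate 1 or 2 of the exposed males (0.0954 and 0.0847). Without exposed replicate 3 it held, with a log2 fold change of -3.85 and an adjusted p of 0.031, and with DESeq2, which called 24.4% of genes in males, its adjusted p was 0.000132.

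In females fkbp5 was at 519, 476 and 489 CPM in the controls, a narrow range. At 40 µg/L it was at 521, 96.5 and 164 CPM, and at 200 µg/L at 67.2, 88.7 and 143 CPM. Thus 1 library at 40 µg/L sat with the controls and the other 2 sat with the 200 µg/L group, which lay wholly below the controls. The mean was 494.7 ± 22.4 CPM in controls, 260.6 ± 228.2 at 40 µg/L and 99.56 ± 38.94 at 200 µg/L (SD, n = 3 each). The level at 200 µg/L was 4.97-fold lower than in controls, with a log2 fold change of -2.31 ± 0.569 but its edgeR adjusted p of 0.193 did not pass. It passed with DESeq2 (adjusted p = 0.000545) and, in edgeR, when replicate 1 of females at 40 µg/L, the library at 521 CPM, was left out of the shared fit (adjusted p = 0.0476). At 40 µg/L the log2 fold change was -0.92 ± 0.546 (edgeR adjusted p = 0.497), and between the doses it was -1.39 ± 0.553 (edgeR adjusted p = 0.196; DESeq2 adjusted p = 0.0406).

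None of the 8 members passed in females at either dose, where 0.571% of 12601 genes passed at 40 µg/L and 0.0556% at 200 µg/L. None passed between the doses either, where 3.93% of genes did. At an unadjusted p under 0.05 the members numbered 0 at 40 µg/L, 2 at 200 µg/L (fkbp5 and nr3c2) and 2 between the doses (fkbp5 and crhbp). The same limit was met by 15.3%, 10.9% and 21.1% of all genes. With DESeq2 the members called numbered 0, 1 and 1 in these comparisons, where it called 8.69%, 3.74% and 14.7% of the genes it gave an adjusted p.

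With both sexes joined, a fit that holds the same male libraries, fkbp5 passed at 40 µg/L against 0, with a log2 fold change of -1.78 ± 0.558 (edgeR adjusted p = 0.0485). It was the only 1 of the 8 to do so, where 16.4% of 13149 genes passed. The call held only without female 40 µg/L replicate 1 (log2 fold change -2.31, edgeR adjusted p = 0.00625). Leaving out any other library of the 12 raised the adjusted p to between 0.0573 and 0.106. The fkbp5 effect of 40 µg/L in females minus that in males was 1.71 ± 0.979 on the log2 scale (edgeR adjusted p = 0.45), so a difference between the sexes was not shown. The unexposed sexes differed by -0.10 on the same scale (edgeR adjusted p = 0.974).

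**Figure D2:**
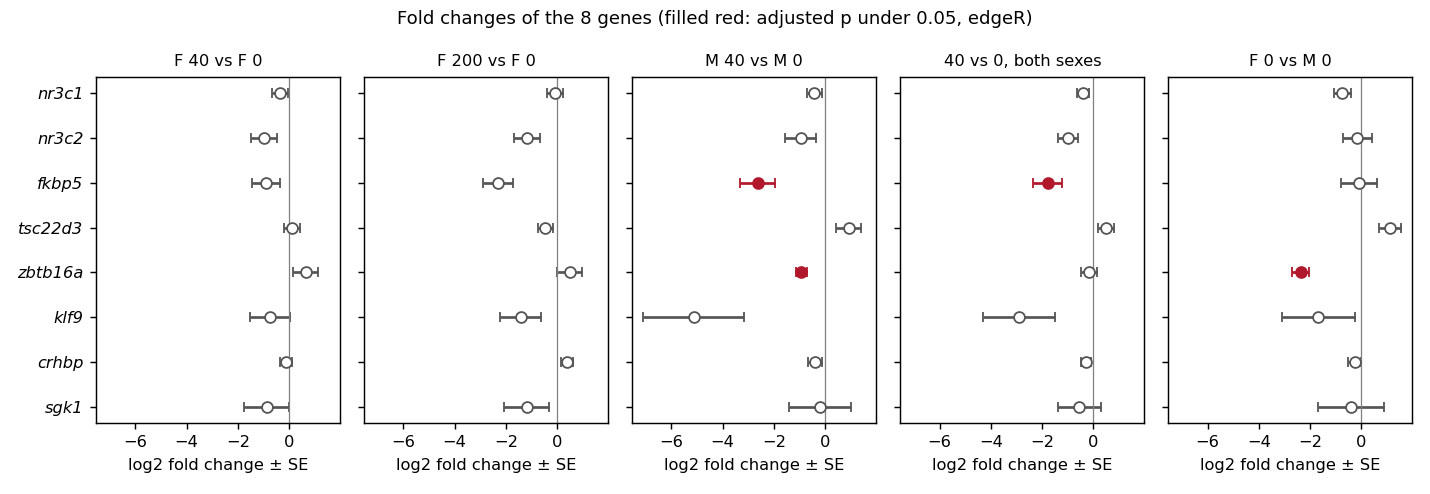
Log2 fold change ± SE (horizontal axis) of each of the 8 genes in 5 comparisons, with filled red points where the edgeR adjusted p was under 0.05. The filled points are fkbp5 and zbtb16a in males at 40 µg/L, fkbp5 with both sexes joined and zbtb16a between the unexposed sexes; the wide bar of klf9 in males comes with 2 exposed libraries at 0.

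zbtb16a encodes a zinc finger transcription factor whose mammalian counterpart is induced by glucocorticoids, and it lies on chromosome 21 at 23163996 to 23307768. Its level was 40.7, 43.4 and 47.0 CPM in the male controls and 23.8, 23.3 and 21.6 in males at 40 µg/L. Both groups were tight and did not overlap. The mean fell from 43.72 ± 3.138 to 22.9 ± 1.165 CPM (SD, n = 3), a log2 fold change of -0.93 ± 0.20 (edgeR adjusted p = 0.0272). The call did not hold without any 1 of the 3 male controls (edgeR adjusted p = 0.105 to 0.115 in 3 fits with 2 controls each) and held without any 1 exposed library (0.0347 to 0.0484).

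The female libraries were all below the males for this gene. Female controls had 11.8, 5.38 and 8.11 CPM, females at 40 µg/L 10.9, 16.8 and 11.7, and females at 200 µg/L 5.47, 15.4 and 14.6. Exposed and control females overlapped, and the highest female library, at 16.8 CPM, was below the lowest male library, at 21.6. Unexposed females stood 5.18-fold below unexposed males, at 8.432 ± 3.226 against 43.72 ± 3.138 CPM (SD, n = 3; log2 fold change -2.37 ± 0.321, edgeR adjusted p = 0.0137). Marker sums of the unexposed sexes also did not overlap for radial glia, at 2680 to 3000 CPM in females and 3450 to 4230 in males, for vessels, at 43.0 to 47.2 and 60.7 to 65.0, and for the telencephalon, at 21.7 to 57.2 and 93.9 to 193, and their part in this difference was not tested. Of all genes 4.42% passed in that comparison, and 1 of the 8 members did; zbtb16a ranked 2 by p among the 13149 genes. The adjusted p rose to 0.0653 without female control replicate 2, to 0.0613 without male control replicate 1 and to 0.0576 without male control replicate 2. It held without each of the other libraries, with adjusted p between 0.00878 and 0.0419, and with DESeq2, which called 19.4% of genes between the unexposed sexes (adjusted p = 5.08e-10).

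Against their own controls, zbtb16a differed by 0.63 ± 0.482 on the log2 scale in females at 40 µg/L (edgeR adjusted p = 0.623) and by 0.49 ± 0.483 at 200 µg/L (edgeR adjusted p = 0.808). The female effect at 40 µg/L minus the male one was 1.57 ± 0.435 (edgeR adjusted p = 0.179). That difference did not pass in edgeR, where 0% of the 13149 genes did, 14.6% had an unadjusted p under 0.05, and 1 of the 8 members did. With DESeq2, which called 503 genes (3.90%) in that comparison, zbtb16a passed with an adjusted p of 0.0238.

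klf9, a Krüppel-like transcription factor induced by glucocorticoids and by thyroid hormone, lies on chromosome 5 at 26075287 to 26078122. It was at 32.3, 27.5 and 10.2 CPM in the male controls and at 2.02, 0 and 0 CPM in males at 40 µg/L. The 2 libraries at 0 carry floors of 2.70 and 11.99 CPM. For the second of them a level such as the 10.2 CPM of the lowest control could not have been told from 0. The 2.02 CPM of the first exposed library, from 52 counts, also lies under its floor of 4.56 CPM. The fitted log2 fold change was -5.14 ± 1.96 (edgeR adjusted p = 0.127), which depends on the prior count and is no measure of size. It passed in edgeR when counts were divided by 4 (adjusted p = 0.049) and without exposed replicate 1 (0.0318). The latter fit keeps only the 2 exposed libraries at 0, so that pass rests on them.

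In females klf9 was at 9.12, 4.48 and 8.32 CPM in controls, 7.90, 4.36 and 0.76 at 40 µg/L and 3.28, 1.502 and 3.32 at 200 µg/L. All 3 libraries at 200 µg/L lay below the lowest control, by a small margin and with replicate 2 under its floor of 4.79 CPM. The log2 fold change was -1.43 ± 0.809 (edgeR adjusted p = 0.583), and at 40 µg/L it was -0.75 ± 0.792 (edgeR adjusted p = 0.767). With both sexes joined at 40 µg/L it was -2.90 ± 1.42 (edgeR adjusted p = 0.193; DESeq2 adjusted p = 0.028).

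In males at 40 µg/L fkbp5, zbtb16a and klf9 were the 3 members without overlap between exposed and control libraries, where 44.6% of all tested genes had none. In females at 200 µg/L they were fkbp5, nr3c2 and klf9, where 17.9% had none. At 40 µg/L in females no member was free of overlap, where 25.0% of genes were. Between the female doses 1 member was, tsc22d3, where 25.3% were, and between the unexposed sexes nr3c1, zbtb16a and klf9 were, where 39.9% were.

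tsc22d3, which encodes the glucocorticoid-induced leucine zipper, a mediator of the anti-inflammatory action of the hormone in mammals, lies on chromosome 14 at 27998756 to 28052650. Its level was 161, 404 and 324 CPM in female controls, 344, 271 and 338 at 40 µg/L and 249, 153 and 244 at 200 µg/L. In males it was 140, 165 and 105 CPM in the controls and 91.9, 308 and 368 at 40 µg/L. Exposed males spanned the controls, with 1 library below them and 2 above. The log2 fold change was 0.91 ± 0.479 in males (edgeR adjusted p = 0.263), and it passed without exposed replicate 1 (1.31, adjusted p = 0.0363). It was 0.10 ± 0.308 in females at 40 µg/L (edgeR adjusted p = 0.941) and -0.46 ± 0.309 at 200 µg/L (edgeR adjusted p = 0.665). Between the unexposed sexes the log2 fold change, female minus male, was 1.12 ± 0.44 (edgeR adjusted p = 0.17), and that difference passed in the joint fit without male 40 µg/L replicate 1 (adjusted p = 0.0445).

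sgk1 encodes a serum- and glucocorticoid-regulated kinase that acts on ion channels and transporters. It is listed on chromosome 23 at 31640240 to 31645762 and on an alternative contig, which share the same counts. How reads that match both were counted is not given. The libraries had 80.7, 122 and 20.3 CPM in female controls, 40.2, 75.7 and 5.66 at 40 µg/L and 22.3, 49.3 and 25.8 at 200 µg/L. In males they had 193, 23.8 and 77.9 CPM in the controls and 63.6, 3.63 and 187 at 40 µg/L. Each exposed group spanned part of its controls. The SD of log2(CPM + 1) was 1.75 within groups and 1.58 over all 15 libraries, the highest of the 8 genes on both. Over the 15 libraries klf9 followed at 1.52, a value that depends on the added 1 as 2 of its libraries are at 0. No comparison passed, and the adjusted p was 0.754 in females at 40 µg/L, 0.714 at 200 µg/L and 0.935 in males (edgeR).

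crhbp, which binds and holds back corticotropin-releasing hormone, lies on chromosome 21 at 7823146 to 7832352 and varied least of the 8. It was at 76.1, 83.7 and 61.5 CPM in female controls, 80.0, 70.9 and 49.5 at 40 µg/L and 101, 79.5 and 108 at 200 µg/L. In males it was at 100.7, 76.3 and 89.2 CPM in controls and 44.7, 93.0 and 63.6 at 40 µg/L. Every exposed group overlapped its controls. The SD of log2(CPM + 1) over the 15 libraries was 0.363. The log2 fold change was -0.14 ± 0.234 in females at 40 µg/L, 0.38 ± 0.235 at 200 µg/L and -0.40 ± 0.289 in males (edgeR adjusted p = 0.87, 0.623 and 0.421). Between the female doses it was 0.53 ± 0.235 (edgeR adjusted p = 0.23).

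The order of the group means differed between members. For fkbp5 and klf9 it ran from male controls through female controls, females at 40 µg/L and females at 200 µg/L down to males at 40 µg/L. For fkbp5 every neighbouring pair of groups in that order overlapped, and for klf9 every pair but the male and female controls did. For zbtb16a the order was male controls, males at 40 µg/L, females at 40 µg/L, females at 200 µg/L and female controls, and the 3 female groups overlapped each other while the male groups stood apart from them and from each other. nr3c1 ran from male controls and males at 40 µg/L to female controls, females at 200 µg/L and females at 40 µg/L, nr3c2 from male and female controls to the 3 exposed groups, and tsc22d3 from females at 40 µg/L to male controls. Highest for crhbp were females at 200 µg/L and for sgk1 male controls, and for these 5 genes each neighbouring pair of groups overlapped.

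Of the log2 fold changes of the 8 members, 6 were below 0 in females at 40 µg/L, 6 at 200 µg/L and 7 in males at 40 µg/L. Of all genes tested 52.0%, 50.0% and 55.5% were below 0. The medians of the members were -0.558, -0.82 and -0.68, beside -0.034, 0.0 and -0.159 over all genes tested. The members were chosen with earlier results of these data known. The 2 female comparisons share their 3 controls.

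The values that moved with the male result were set beside it. The rare-gene medians of the 2 male groups do not overlap, so in males library complexity and DBAN cannot be told apart. In females at 200 µg/L fkbp5 stood at 67.2, 88.7 and 143 CPM in libraries with rare-gene medians of 10, 17 and 8, beside 8 to 11 in the female controls. Female replicates 1, 2 and 3 at 40 µg/L had 521, 96.5 and 164 CPM of fkbp5. Their rare-gene medians were 28, 8 and 35. The 4 telencephalon markers foxg1a, emx3, eomesa and tbr1b, all found, summed to 93.9 to 193 CPM in male controls and 308 to 413 in males at 40 µg/L. They summed to 21.7 to 57.2 CPM in female controls, 450 to 682 at 40 µg/L and 14.3 to 141 at 200 µg/L, with emx3 at 0 in at least 1 library of female controls and emx3 and tbr1b in at least 1 at 200 µg/L. The hindbrain and cerebellum markers, 4 of 4 found, summed to 250 to 395 CPM in male controls and 133 to 198 in males at 40 µg/L, and the radial glia markers, 6 of 6 found, to 3450 to 4230 and 1980 to 2810. For fkbp5, zbtb16a and klf9 the part of these values was not tested. In whole-brain RNA, fewer cells of a type and less RNA per cell cannot be told apart.

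**Figure D3:**
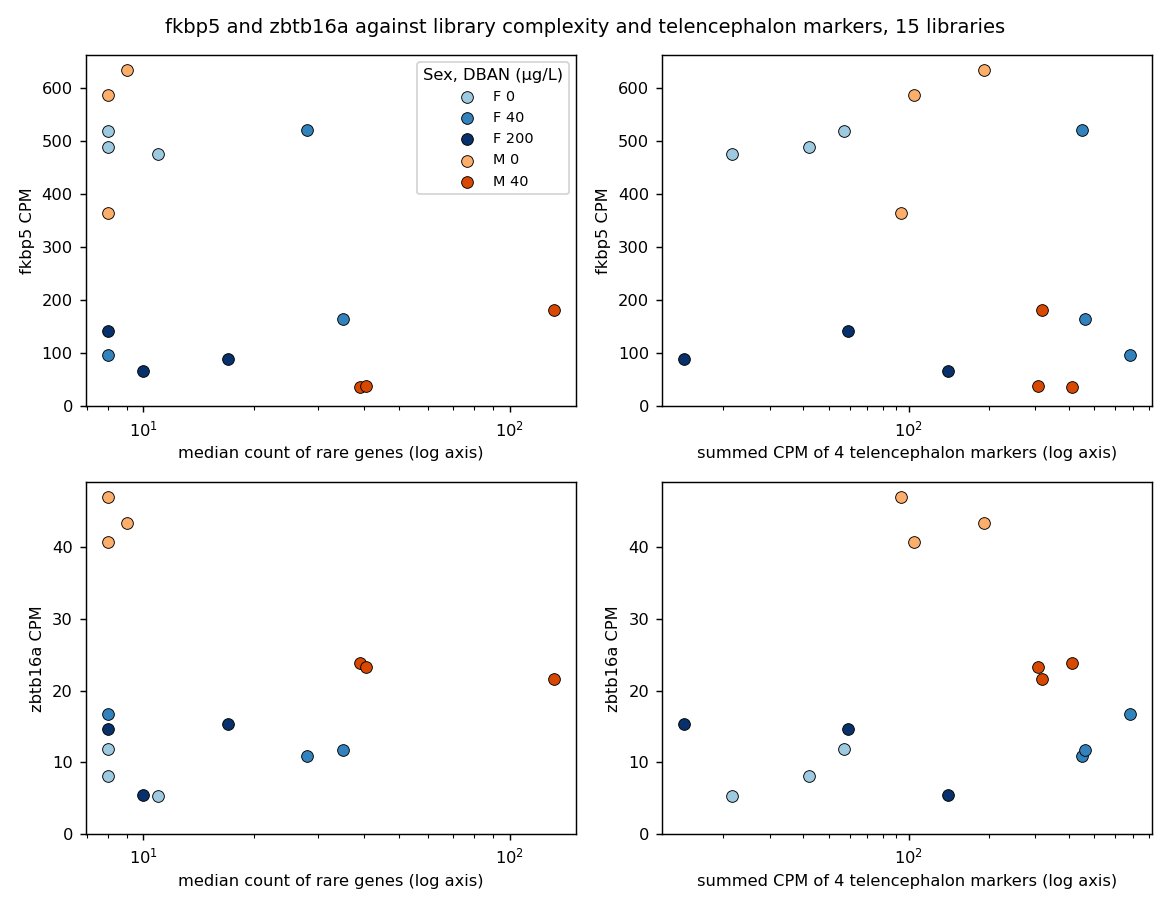
CPM of fkbp5 (top) and zbtb16a (bottom, vertical axes linear from 0) in the 15 libraries against the median count of rare genes (left, log axis) and the summed CPM of 4 telencephalon markers (right, log axis), coloured by sex and DBAN. fkbp5 is low in the 3 male libraries at 40 µg/L, with rare-gene medians of 39 to 132, and in the 3 female libraries at 200 µg/L, with 8 to 17; for zbtb16a all 6 male libraries lie above all 9 female libraries.

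The rest of the pathway was followed in 4 lists. Of the axis peptides and their receptors 9 of 13 genes were found, of the enzymes of cortisol synthesis and breakdown 5 of 10, of receptor chaperones and coregulators 18 of 25, and of further glucocorticoid targets 20 of 24. In females no gene of any list passed the edgeR test at 40 or 200 µg/L on all libraries. DESeq2 called genes of 2 lists at 40 µg/L and of all 4 at 200 µg/L, where it called 8.69% and 3.74% of the genes it gave an adjusted p.

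Among further targets in males at 40 µg/L, 2 rose and 4 fell of 20 tested, where 15.1% of all genes were called. per1a and per1b, clock genes with glucocorticoid-responsive counterparts in mammals, fell from 130.2 ± 21.52 to 47.19 ± 2.684 and from 586.4 ± 42.52 to 282.2 ± 47.2 CPM (SD, n = 3; edgeR adjusted p = 0.0101 and 0.0136). irs2a, an adaptor of insulin signalling, fell from 128.4 ± 18.92 to 35.56 ± 9.111 CPM (edgeR adjusted p = 0.0105), and foxo3b, a forkhead factor, from 83.95 ± 21.97 to 29.82 ± 8.512 (0.0222). The risers were cebpb, a transcription factor, from 25.07 ± 8.544 to 130.9 ± 55.91 CPM (edgeR adjusted p = 0.0153), and socs3a, an inhibitor of cytokine signalling, from 13.61 ± 7.709 to 122.9 ± 13.67 (0.0143). The list's median log2 fold change was -0.493 beside -0.159 over all genes. In mammals both risers are also induced by inflammatory cytokines. Without male control replicate 2 no gene of the whole table passed in males, so none of these calls held there.

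In females none of the 20 targets passed against controls with edgeR on all libraries, but DESeq2 called some of them. per1a was at 189.9, 158.2 and 175.7 CPM in controls, 78.30, 34.34 and 109.2 at 40 µg/L and 45.44, 29.20 and 36.19 at 200 µg/L. Both exposed groups lay below the controls. At 200 µg/L the log2 fold changes were -2.24 for per1a and -1.56 for per1b (edgeR adjusted p = 0.0755 for both) and 1.60 for cebpb (0.174). With DESeq2, which called 3.74% of genes at 200 µg/L, 2 fell there, per1a (adjusted p = 3.54e-06) and per1b (8.41e-06). Another 3 rose, socs3a (0.00178), cebpb (0.00525) and nfkbiaa, an inhibitor of NF-kB (0.0217), among 16 that it gave an adjusted p. In 200 µg/L replicates 1, 2 and 3 socs3a stood at 146, 33.7 and 27.4 CPM and nfkbiaa at 101, 25.1 and 27.9. Replicate 1 was thus far above the others, and the female controls reached 16.7 and 18.8 CPM. The edgeR adjusted p of socs3a and nfkbiaa were 0.175 and 0.244. In edgeR per1a passed at 200 µg/L without female 40 µg/L replicate 2 (adjusted p = 0.0109) and per1b without female control replicate 2 (0.0496). At 40 µg/L the smallest p in the list were those of per1a (-1.24, adjusted p = 0.131), foxo3b (-1.26, 0.124) and mt2, a metallothionein (-2.28, 0.0808; edgeR). With DESeq2, which called 8.69% of genes at 40 µg/L, mt2 (adjusted p = 0.00196), foxo3b (0.0184), per1a (0.0205) and per1b (0.0239) fell there, 4 of 18. In edgeR mt2 passed at 40 µg/L without female 200 µg/L replicate 2 (adjusted p = 0.041). mt2 was the 1 gene of the list called between the female doses, where 3.93% of all genes passed. It was higher at 200 than at 40 µg/L by 3.07 on the log2 scale (edgeR adjusted p = 0.0218). With a library left out its edgeR adjusted p between the doses rose to as much as 0.0972. With both sexes joined at 40 µg/L, cebpb, socs3a and nfkbiaa rose, and per1a, per1b, foxo3b and lpin1, a lipid phosphatase, fell. In that edgeR comparison 16.4% of all genes passed. With a library left out, the highest edgeR adjusted p there was 0.0888 for cebpb, 0.0534 for socs3a, 0.108 for nfkbiaa and 0.114 for lpin1. In females alone at 40 µg/L cebpb and socs3a did not pass (edgeR adjusted p = 0.745 and 0.627). For the sex difference, female minus male, DESeq2 called 3.90% of genes. Among them were cebpb (log2 difference -2.02, adjusted p = 0.02) and socs3a (-2.44, 0.0111).

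Of the receptor chaperones and coregulators 4 rose and 2 fell of 18 tested in males at 40 µg/L, against the same 15.1% of all genes. The heat shock protein 90 genes hsp90aa1.2 and hsp90ab1, whose products hold the receptor ready for hormone, rose from 306.0 ± 71.15 to 573.2 ± 87.08 CPM (edgeR adjusted p = 0.0346) and from 3847 ± 251.2 to 6936 ± 920.6 CPM (0.017; SD, n = 3). fkbp4, the co-chaperone that exchanges with the fkbp5 product on the receptor, fell from 129.8 ± 2.261 to 58.62 ± 21.97 CPM (edgeR adjusted p = 0.0388). ppp5c, a phosphatase of the same complex, fell by 1.92 on the log2 scale (edgeR adjusted p = 0.049). Its exposed replicate 3, at 4.63 CPM, lies under that library's floor of 11.99 CPM. The other risers were crebbpb, a histone acetyltransferase, by 0.98 (0.0496), and smarca4a, a chromatin remodeller, by 0.63 (0.0373). None of these male calls held without male control replicate 2. With a library left out their highest edgeR adjusted p ran from 0.073 (hsp90ab1) to 0.163 (crebbpb), with 0.144 for ppp5c. The list's median log2 fold change was -0.139 beside -0.159 over all genes. With both sexes joined hsp90aa1.2, hsp90ab1, crebbpb and smarca4a rose and ppp5c fell, where 16.4% of all genes passed in edgeR. With a library left out the edgeR adjusted p of crebbpb in that comparison rose to as much as 0.0668.

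In females at 40 µg/L the smallest p in this list belonged to hsp90ab1 (log2 fold change 0.56, edgeR adjusted p = 0.102), bag1, a co-chaperone of heat shock protein 70 (-1.11, 0.0511), and smarca4a (0.81, 0.0606). All 3 passed with DESeq2 (adjusted p = 0.0176, 0.000259 and 0.00129). In edgeR bag1 and smarca4a passed without female 40 µg/L replicate 2 (adjusted p = 0.0478 and 0.0355) or female 200 µg/L replicate 2 (0.0348 for both), and bag1 with no filter (0.0476) or counts divided by 4 (0.0424). Between the female doses bag1 and ppp5c were higher at 200 µg/L and the coregulators ncoa2, crebbpb and smarca4a were lower (edgeR adjusted p = 0.0238 to 0.0484). With a library left out their highest edgeR adjusted p ran from 0.11 (smarca4a) to 0.177 (ncoa2), so none of these calls held in every fit. Of these genes only ppp5c kept its call under all the other settings. In that comparison 3.93% of all genes passed. At 200 µg/L against controls ncoa2 (log2 fold change -1.19) and crebbpb (-0.62) were among those of smallest p and did not pass in edgeR. ncoa2 passed there with DESeq2 (adjusted p = 0.0386). bag1 was also the 1 gene of the 4 lists called between the unexposed sexes, where 4.42% of all genes passed. It was at 104.3 ± 13.32 CPM in females against 48.55 ± 0.5546 in males (SD, n = 3; edgeR adjusted p = 0.0239, and up to 0.112 with a library left out).

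**Figure D4:**
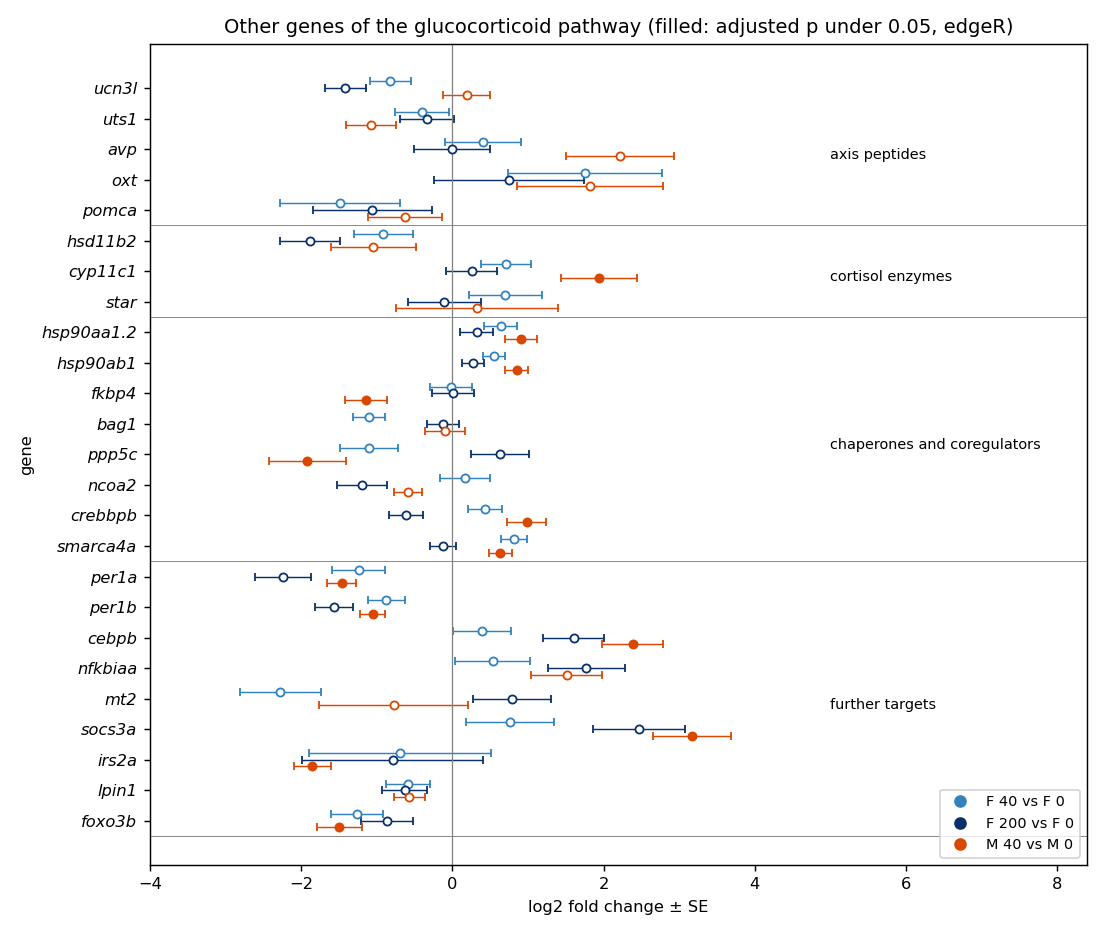
Log2 fold change ± SE (horizontal axis) of genes of the 4 pathway lists (vertical axis) in females at 40 and 200 µg/L and males at 40 µg/L, each against controls of the same sex, filled where the edgeR adjusted p was under 0.05; pomcb and cyp17a2, with group means of about 3 CPM or less, are left out. All filled points are of males, with per1a, per1b, irs2a, foxo3b, fkbp4 and ppp5c to the left of 0 and cebpb, socs3a, cyp11c1, the heat shock protein 90 genes, crebbpb and smarca4a to the right.

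Among the enzymes, cyp11c1, which makes cortisol in the last step of its synthesis in fish, rose in males from 5.397 ± 1.973 to 20.72 ± 8.188 CPM (SD, n = 3; log2 fold change 1.94, edgeR adjusted p = 0.0467), the 1 call among 4 tested, where 15.1% of all genes were called. With a library left out its edgeR adjusted p in males ran from 0.0312 to 0.163. cyp11c1 also passed with both sexes joined (edgeR adjusted p = 0.0179, and 0.012 to 0.0514 with a library left out), where 16.4% of all genes passed. hsd11b2, which inactivates cortisol, was at 21.93, 20.51 and 19.77 CPM in female controls, 14.88, 7.97 and 10.23 at 40 µg/L and 7.72, 4.13 and 4.98 at 200 µg/L. Both exposed groups lay below the controls, and neither difference passed in edgeR (log2 fold change -0.91, edgeR adjusted p = 0.288, and -1.88, adjusted p = 0.136). At 200 µg/L it passed with DESeq2 (adjusted p = 0.0014), with replicate 2 under its floor of 4.79 CPM. In males the log2 fold change of hsd11b2 was -1.04 (edgeR adjusted p = 0.271), and without exposed replicate 2 it was -1.77 (0.0432). That fit leaves exposed libraries at 3.89 and 6.75 CPM, under their floors of 4.56 and 11.99 CPM. The library left out, at 15.78 CPM, lay among the male controls, at 14.94 to 21.14. star, which brings cholesterol to the first enzyme, had a log2 fold change of 0.70 in females at 40 µg/L and did not pass. cyp17a2, a steroid hydroxylase, had no more than 6.52 CPM in any library, too low for its fold to be read.

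No axis gene passed in any comparison with edgeR on all libraries. The smallest p in females at 200 µg/L was that of ucn3l, a urocortin of the corticotropin-releasing family, with 122.4 ± 29.45 CPM in the unexposed and 45.97 ± 10.68 in the exposed group (SD, n = 3; log2 fold change -1.41, edgeR adjusted p = 0.0971). It passed at 200 µg/L with DESeq2 (adjusted p = 0.000816). At 40 µg/L it was -0.82 (edgeR adjusted p = 0.181). In males avp, the vasotocin precursor, had a mean of 19.86 ± 19.62 CPM unexposed and 92.18 ± 27.09 exposed (SD, n = 3; edgeR adjusted p = 0.079), and oxt, the isotocin precursor, at 254.3 ± 245.0 and 897.9 ± 223.4 CPM (adjusted p = 0.266). uts1, the fish urotensin of the same family as ucn3l, had a log2 fold change of -1.08 in males (edgeR adjusted p = 0.0685). With DESeq2 avp and uts1 passed in males (adjusted p = 0.00585 and 0.0281), and avp, oxt and uts1 did with both sexes joined. DESeq2 called 24.4% of genes in males and 25.4% with both sexes joined. Hypothalamus markers, 6 of 6 found, summed to 78.3 to 105 CPM in male controls and 70.4 to 194 in males at 40 µg/L, and their part in the avp and oxt values was not tested. pomca, the precursor of corticotropin, had a log2 fold change of -1.48 in females at 40 µg/L (edgeR adjusted p = 0.423), and pomcb had no more than 5.53 CPM in any library. pomca is itself 1 of the 7 pituitary markers, so their sum is no separate measure beside it. It gave 22.38 of 23.7 CPM in female control replicate 1 and 3.05 of 9.61 CPM in female 40 µg/L replicate 2.

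Likeness to other genes was described for the 3 members whose log2(CPM + 1) varied most. It was the root-mean-square difference of centred log2(CPM + 1) profiles over the 15 libraries. Nearest to fkbp5 were foxg1b, a forebrain transcription factor, at 0.727, ciarta, a circadian repressor, at 0.784, and pfkfb4b, a glycolytic regulator, at 0.833, where the median over 7450 genes was 1.49. ciarta had group means of 102, 28.5 and 22.6 CPM in females at 0, 40 and 200 µg/L and 102 and 20.7 in males at 0 and 40 µg/L. Nearest to klf9 were napba at 0.74, pik3r3a at 0.802 and ppp2caa at 0.812, where the median was 1.53. The genes nearest to sgk1, abcb6a, atp13a2 and dipk1b, were at 1.18 to 1.22 where the median was 1.63. These distances share libraries and depth and are descriptions only.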

How the data were processed

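The authors deposited raw counts, with no scaling to depth, in 2 tables whose 3 female control columns are identical. Per the submitters' processing notes the tools were STAR, StringTie, FastQC, Picard and DESeq2, with neither version nor role, and no build is named. Per the labels' protocols, oligo-dT beads captured the mRNA and a TruSeq V2 kit was used. Of the symbols 14037 (93.8%), and all 8 members, match a RefSeq symbol.

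Counts were fitted in R 4.3.3 with edgeR 4.0.16: filterByExpr, TMM factors computed once over 15 libraries, the robust quasi-likelihood F test, and Benjamini-Hochberg adjustment over all genes tested, calling at an adjusted p under 0.05. Females were fitted in 9 libraries, males in 6 and both sexes at 0 and 40 µg/L in 12. The approximate SE is the absolute log2 fold change over the root of F. A library at 0 has a floor of 3 times its rare-gene median, and floors cover counting error only. Biological coefficients of variation of 0.65 (females) and 0.769 (males) limit calls of small changes. The fits were checked on simulated counts.

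Named are the 8 members, each list gene that passed, the 3 list genes of smallest p per list in each comparison with controls of the same sex, and the 3 genes most like each of 3 members. Some genes so selected are not reported here. The members and lists were chosen with earlier results of these data known. Alternatives were median-of-ratios scaling, TMM within each fit, no filter, DESeq2 1.42.0, counts divided by 4, a replicate block and each library left out. Replicate 2 as the sole library of females at 40 µg/L was chosen after seeing the data.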

Additional observations from a re-analysis of the deposited data

How the results depend on the processing

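Of 344 member results under other settings 330 kept their direction and side of the threshold, and of 552 with a library left out 504 did. Most of these results were not called on all libraries, so they had no call to lose. Calls were lost in 4 of the 344 and in 22 of the 552. With a library left out, 110 of 555 list-gene results lost their call. The fall of fkbp5 and zbtb16a in males held under both scalings, no filter and DESeq2. Genes called in females at 40 µg/L (72) numbered 31 with median-of-ratios scaling, 30 with TMM within the fit, 796 with DESeq2, 133 with counts divided by 4, 0 with the replicate block and 0 by replicate 2 of the group alone, a lone library assumed to vary like the other groups, and 0 to 306 with a library left out. With DESeq2, the replicate block and a library left out they numbered 333, 2 and 1 to 10 at 200 µg/L (7), 1428, 76 and 1 to 579 between the female doses (495), 3269, 938 and 0 to 3110 in males (1880), and 1742, 283 and 0 to 894 between the unexposed sexes (581). For the sex difference (0) DESeq2 called 503 and a library left out 0 to 369, and with both sexes joined (2160) 3316 and 1401 to 2717. Members called with DESeq2 were 1 at 200 µg/L, 1 between the doses, 1 for the sex difference and 3 with both sexes joined; with the block 0 in males and 0 with both sexes joined, where no filter also gave 0. Leaving out a library gave 0 to 1 of the 8 at 200 µg/L, 0 to 3 in males, 0 to 2 between the unexposed sexes and 0 to 1 with both sexes joined. Replicate numbers did not pair the libraries: 30 correlations of same-numbered libraries ran from -0.126 to 0.119, and 21 of 60 libraries, counted over the group pairs, correlated best with their own number. Directions reversed for tsc22d3 (-0.129) and sgk1 (0.0254) by female 40 µg/L replicate 2 alone, and under the block for sgk1 between the doses (0.27), nr3c2 in the sex difference (0.17) and cyp17a2 in males (-0.0054, at too few counts to be read). With a library left out, log2 fold changes crossed 0 for tsc22d3 (-0.20 to 0.39) and crhbp (-0.29 to 0.0326) in females at 40 µg/L, nr3c1 at 200 µg/L (-0.26 to 0.0275), klf9 (-1.18 to 0.0815), sgk1 (-0.84 to 0.50) and zbtb16a (-0.39 to 0.20) between the doses, sgk1 in males (-1.55 to 0.74), fkbp5 (-0.30 to 0.0543), nr3c2 (-0.60 to 0.15) and sgk1 (-0.96 to 0.55) between the unexposed sexes, and nr3c1 (-0.25 to 0.34), nr3c2 (-0.32 to 0.78) and sgk1 (-1.61 to 0.68) in the sex difference. The causes were not tested. No scaling moved the median of all genes by over 0.1 on the log2 scale. Among the members, depth and complexity limit klf9 and nr3c2, which had libraries under their floors. Of the list genes, hsd11b2 and ppp5c were among those with such libraries.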
